A study of Mus musculus with 6 samples.

Results

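Transcripts of 10 receptors for hypothalamic and other neuropeptides were examined in neurons of the preBötzinger complex (preBötC), the site in the ventral medulla where the rhythm of inspiratory breathing arises. The receptors were chosen by name, 10 of the 49568 gene names with a value in every sample. They are the orexin receptors Hcrtr1 and Hcrtr2, the oxytocin receptor Oxtr, the vasopressin V1a receptor Avpr1a, the corticotropin-releasing hormone (CRH) receptor Crhr1, the neuropeptide Y (NPY) receptors Npy1r, Npy2r and Npy5r, the galanin receptor Galr1 and the cholecystokinin (CCK) B receptor Cckbr.

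All 6 samples came from Dbx1CreERT2; Rosa26tdTomato mice at postnatal day 2, of both sexes, whose mothers received tamoxifen during pregnancy. Each sample pooled 15 neurons drawn singly into micropipettes, and each came from a different mouse. The 3 Dbx1 samples held tdTomato-positive neurons, which descend from progenitors that express the transcription factor Dbx1. The 3 non-Dbx1 samples held neuronal somata without tdTomato, so a neuron of the Dbx1 lineage in which Cre had not recombined would count as non-Dbx1, and the group mixes whatever other neuron types lay nearby. Expression is given in RPKM (reads on a gene, scaled by its exon length in kilobases and by the reads of that sample) as deposited by the authors. Between 6464675 and 9432958 reads per sample fell on genes. L2FC denotes the mean log2(RPKM + 1) of the Dbx1 samples minus that of the non-Dbx1 samples, and it was tested with limma over 17614 genes.

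These receptors sit in the cell membrane and signal through G proteins when a peptide binds. Orexin, oxytocin, vasopressin V1a and CCK receptors act mainly through the Gq class and phospholipase C, which tends to excite neurons. CRH receptors act mainly through Gs and cyclic AMP, and NPY receptors and Galr1 through the Gi/o class, which tends to inhibit neurons or their release of transmitter. Orexin and CRH are best known from hypothalamic circuits of arousal and stress, whose axons reach brainstem respiratory groups.

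All 6 neuron markers examined, among them Tubb3 and Snap25, were above 0 in every sample, and their summed RPKM was 994 to 1708 in the Dbx1 and 993 to 1380 in the non-Dbx1 samples. Markers of other cells or neuron types stood out in each non-Dbx1 sample. In non-Dbx1 replicate 1 5 oligodendrocyte markers summed to 228 RPKM against 3.53 to 15.8 elsewhere, with Mbp, a myelin protein gene, at 155, and the 5 erythroid markers, globin genes and Alas2, summed to 14060 against 90.3 to 1198. In non-Dbx1 replicate 2 the 5 catecholaminergic markers summed to 673 against 1.65 to 19.0 elsewhere, with Dbh, which makes noradrenaline, at 339. The 4 endothelial markers summed to 67.5 in that sample against 0.0244 to 3.08 elsewhere, but Cldn5 alone gave 63.7 of this, and Pecam1 was highest in Dbx1 replicate 2 (0.507). In non-Dbx1 replicate 3 the 5 motor neuron markers summed to 62.3 RPKM against 1.34 to 20.4 elsewhere. Of this, Slc18a3 gave 37.0 and the transcription factor gene Isl1 13.3, and Isl1 was at 0 in all other samples. Chat was also highest in non-Dbx1 replicate 3. Slc5a7 was not, at 7.91 against 10.9 in non-Dbx1 replicate 2 and 8.52 in Dbx1 replicate 3. Mnx1 was above 0 only in non-Dbx1 replicate 1 (0.145). Summed RPKM overlapped between the groups for 6 astrocyte markers (24.6 to 37.0 in Dbx1 and 32.9 to 44.9 in non-Dbx1 samples), 5 microglial markers (0.202 to 10.4 and 0.739 to 13.3) and 4 inhibitory neuron markers (45.7 to 143 and 97.7 to 143). Erythroid markers also separated the groups, since 4 of 5 were higher in all non-Dbx1 samples, with summed RPKM of 733 to 14060 against 90.3 to 507. The part of these cells in the receptor values was not tested.

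All 10 receptor transcripts were above 0 in at least 1 sample of each group, but few were present throughout. Of 60 values, 14 were 0, 5 of them in Dbx1 and 9 in non-Dbx1 samples. Of the 10 receptors, 6 (Hcrtr1, Hcrtr2, Avpr1a, Crhr1, Npy2r and Cckbr) were above 0 in all 3 Dbx1 samples, and 2 (Hcrtr2 and Crhr1) in all 3 non-Dbx1 samples. Among the 19211 genes above 0 in some sample of both groups, 69.9% were above 0 in all 3 Dbx1 and 67.3% in all 3 non-Dbx1 samples. The non-Dbx1 count depended most on replicate 1, where Hcrtr1, Avpr1a, Galr1 and Cckbr were all at 0. Without it, 6 receptors were above 0 in both of the other samples. Without non-Dbx1 replicate 3 the count was 4, and without replicate 2 it was 3. In the Dbx1 samples the counts were 7, 6 and 8 without replicates 1, 2 and 3. Leaving out a sample cannot lower such a count, and the share over all genes was not computed for it. Non-Dbx1 replicate 1 had the fewest reads on genes and the lowest summed RPKM of the 10 receptors, 14.4 against 26.8 to 57.7 in the other samples. Its number of genes above 0, 17968, lay within the range of the other samples, 16536 to 19143. The part of depth in these zeros was not tested. A lower value in a pool of 15 neurons can mean fewer cells with the transcript or less of it per cell, and these cannot be told apart.

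**Figure D1:**
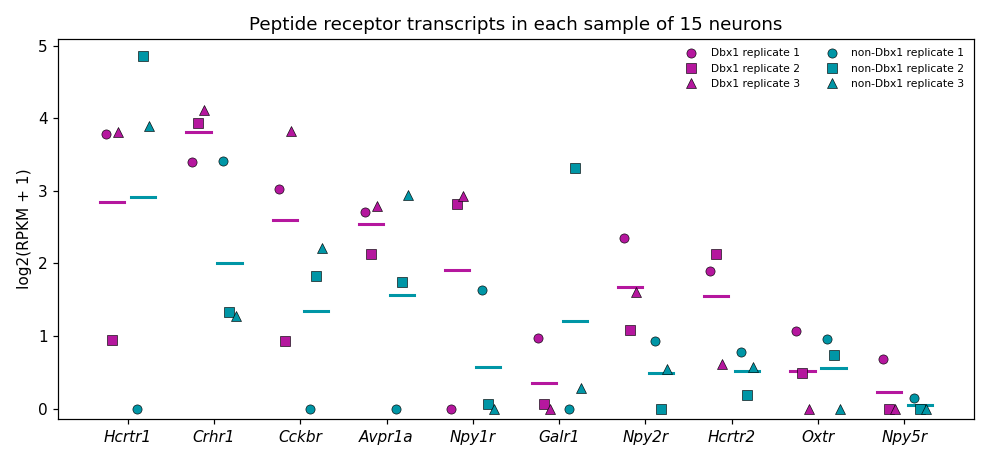
The vertical axis gives log2(RPKM + 1) of the 10 receptors, ordered from left to right by mean RPKM over 6 samples, in 3 Dbx1 (magenta) and 3 non-Dbx1 (teal) samples, with symbols for the replicates and a bar at each group mean. Only for Npy2r do all 3 Dbx1 samples lie above all 3 non-Dbx1 samples, and non-Dbx1 replicate 1 (teal circles) is at 0 for Hcrtr1, Cckbr, Avpr1a and Galr1.

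The limma test covered 9 receptors, those above 0 in at least 3 samples, and left out Npy5r. None of the 9 reached FDR < 0.1, against 1 gene of all tested (0.00568%), D930028M14Rik, which was higher in the non-Dbx1 samples. At the same FDR threshold the authors' DESeq2 test of counts called genes that limma on RPKM did not. Among them were Hif1a, Pbx3 and Syt10, higher in the Dbx1 samples, and Gata2 and Htr1a, higher in the non-Dbx1 samples. A receptor not called here is therefore not shown to be equal between the groups. At an unadjusted limma p under 0.05, Crhr1 alone was higher in the Dbx1 samples and no receptor in the non-Dbx1 samples, where 2.73% and 2.48% of all tested genes passed. Crhr1 no longer passed in 4 of the 6 fits that left out 1 sample, namely Dbx1 replicate 2 or 3 or non-Dbx1 replicate 2 or 3. It passed in all 8 alternative fits that kept every sample. Each of Hcrtr2, Npy1r and Cckbr passed in 1 of the 6 fits that left out 1 sample, and Npy2r in 2 of them. Npy2r also passed in 1 of its 8 alternative fits that kept every sample, the one without a mean-variance trend. The groups did not overlap for Npy2r, which was higher in every Dbx1 sample, as were 5.35% of all tested genes, and for no receptor that was higher in every non-Dbx1 sample (5.24% of all). L2FC was above 0 for 6 receptors and below 0 for 3, with a median of 1.04, against 50.8% above 0 and a median of 0.01 over all tested genes.

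**Figure D2:**
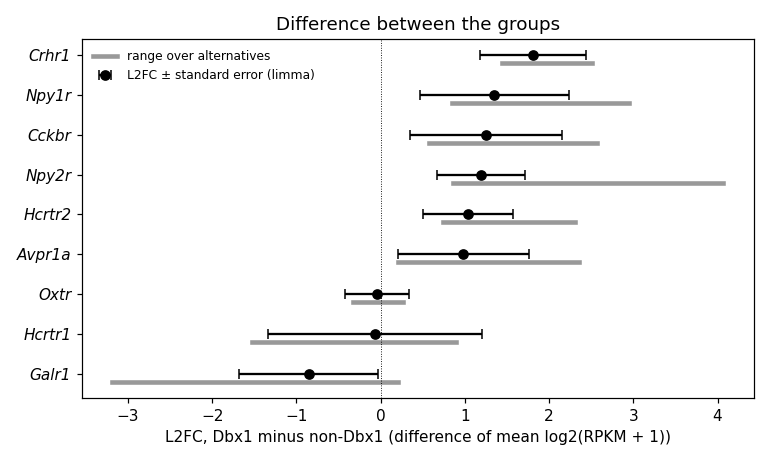
Points and black bars give L2FC and its standard error from limma for 9 receptors (horizontal axis, 3 Dbx1 against 3 non-Dbx1 samples), and grey bars the range over the alternative settings, some of which use another log scale. The grey bars of Crhr1, Npy1r, Cckbr, Npy2r, Hcrtr2 and Avpr1a stay above 0, and those of Oxtr, Hcrtr1 and Galr1 cross it.

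By mean RPKM over 6 samples the order was Hcrtr1 (11.4), Crhr1 (8.81), Cckbr (4.56), Avpr1a (3.98), Npy1r (2.47), Galr1 (1.70), Npy2r (1.44), Hcrtr2 (1.33), Oxtr (0.517) and Npy5r (0.120). Among the 27067 genes above 0 in any sample this placed Hcrtr1 at percentile 85.3, Npy2r at 54.0 and Npy5r at 21.3. Few of these steps exceeded the spread: of 9 neighbouring pairs, only Oxtr and Npy5r differed by more on the log2(RPKM + 1) scale within samples (mean 0.40) than the SD of that difference (0.35). For 8 of the 10 receptors the deposited RPKM gave whole reads with the summed length of distinct exons in GENCODE vM21, in which overlapping exons of different transcripts each count in full, so genes with many overlapping exons appear lower. For Avpr1a and Galr1 that length did not give whole reads. The shortest lengths that did were 2671 and 2871 bases, close to their merged exons of 2670 and 2987 bases. Whole multiples of these lengths would fit too, so the reads of these receptors are the fewest that fit. With exons merged instead, the mean RPKM of Npy2r was 4.07, which moved it from rank 7 to rank 4, and the mean of Npy5r was 0.270 and of Oxtr 0.909. The means of Crhr1 and Avpr1a did not move, and on this scale too 8 of 9 neighbouring pairs, all but Oxtr and Npy5r, differed by less than their spread. The choice of length scales all samples of a gene alike, but because 1 is added to RPKM before the log, it can still change L2FC. L2FC was not fitted with merged lengths.

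**Figure D3:**
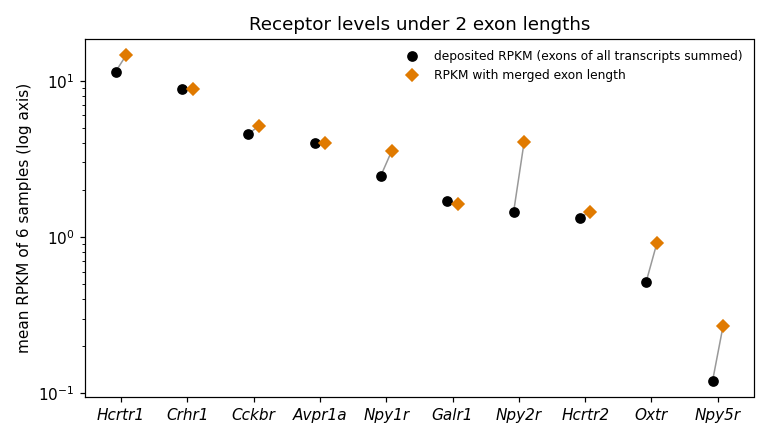
The logarithmic vertical axis gives the mean RPKM of 6 samples for each receptor as deposited (black circles) and with merged exons (orange diamonds), in the order of the deposited means. Npy2r moves furthest, from 1.44 to 4.07, while Crhr1 stays at 8.81.

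The promoters of 4 receptors are shown because Avpr1a and Cckbr were the pair of receptors whose levels varied most alike over the samples, Crhr1 had the lowest p between the groups, and Npy2r was the receptor whose groups did not overlap. Each is the 250 bases before the outermost RefSeq start of the gene on GRCm38.p6, read 5′ to 3′ on the strand of the gene, with motif matches in capitals. The motifs were the TATA box (TATAAA), the GC box (GGGCGG), the CCAAT box (CCAAT), the E-box (CACGTG) and the cyclic AMP response element (TGACGTCA), searched on both strands, so a match on the other strand appears as its reverse complement. No matches overlapped.
Avpr1a, chr10:122448249-122448498, plus strand: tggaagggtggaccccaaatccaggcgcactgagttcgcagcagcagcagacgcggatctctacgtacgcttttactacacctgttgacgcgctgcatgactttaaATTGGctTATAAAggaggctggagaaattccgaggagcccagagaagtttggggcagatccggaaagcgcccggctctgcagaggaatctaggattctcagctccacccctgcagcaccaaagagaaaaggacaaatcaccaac
Cckbr, chr7:105425481-105425730, plus strand: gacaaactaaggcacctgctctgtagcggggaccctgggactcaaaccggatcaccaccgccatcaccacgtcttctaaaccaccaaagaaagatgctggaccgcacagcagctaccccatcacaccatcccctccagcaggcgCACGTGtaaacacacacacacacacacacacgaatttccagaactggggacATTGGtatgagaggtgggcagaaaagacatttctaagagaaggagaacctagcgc
Crhr1, chr11:104132531-104132780, plus strand: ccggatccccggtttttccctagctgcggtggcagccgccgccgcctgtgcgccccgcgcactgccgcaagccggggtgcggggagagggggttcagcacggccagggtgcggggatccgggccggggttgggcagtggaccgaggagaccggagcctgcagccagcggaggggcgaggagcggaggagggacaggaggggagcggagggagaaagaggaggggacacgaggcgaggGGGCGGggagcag
Npy2r, chr3:82548086-82548335, minus strand: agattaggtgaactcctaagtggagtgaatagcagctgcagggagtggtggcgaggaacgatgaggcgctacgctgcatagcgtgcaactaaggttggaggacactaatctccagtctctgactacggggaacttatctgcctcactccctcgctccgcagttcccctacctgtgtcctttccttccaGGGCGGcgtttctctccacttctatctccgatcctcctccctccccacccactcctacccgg
Of the 27025 promoter windows of this length, 13.0% held the TATA box, 33.0% the GC box, 34.5% the CCAAT box, 6.04% the E-box and 1.6% the cyclic AMP response element. The window of Avpr1a held a TATA box, ending 132 bases before the start, and, on the other strand, a CCAAT box, ending 140 bases before it. The window of Cckbr held an E-box, ending 101 bases before the start, and, on the other strand, a CCAAT box, ending 51 bases before it. Crhr1 and Npy2r each held 1 GC box, ending 8 and 57 bases before the start. The GC content was 74.8% for Crhr1, 56.8% for Npy2r and 53.6% for both Avpr1a and Cckbr, against a median of 52.0% over all windows. None of the 4 windows shown held the cyclic AMP response element. These are matches of letters in a window and were not tied to any measured binding.

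Hcrtr1, which prefers orexin A, lies on chromosome 4 (130130217 to 130139359 of GRCm38, minus strand). It stood at 12.8, 0.919 and 13.1 RPKM across Dbx1 replicates and at 0, 27.9 and 13.9 across non-Dbx1 replicates. Both groups thus held high and low samples, and the single highest and lowest values were both non-Dbx1. The 0 in non-Dbx1 replicate 1 allows up to 0.140 RPKM by a floor of 3 reads, which covers counting error only. L2FC was -0.07 ± 1.27 (SE, limma FDR = 0.998), and its sign depended on single samples, reaching -1.53 without non-Dbx1 replicate 1 and 0.90 without non-Dbx1 replicate 2.

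Hcrtr2, which binds both orexins, lies on chromosome 9 (76225880 to 76323856, minus strand) and was above 0 in every sample. Its gene overlaps Gm27234 on the opposite strand, and the counting did not use strand, so reads in the overlap could not be told apart. It stood at 2.72, 3.38 and 0.532 RPKM across Dbx1 replicates and at 0.710, 0.138 and 0.486 across non-Dbx1 replicates. Dbx1 replicates 1 and 2 were above all others, and Dbx1 replicate 3 lay within the non-Dbx1 range. The group means were 2.21 ± 1.49 and 0.445 ± 0.288 RPKM (SD, n = 3 each), with an L2FC of 1.04 ± 0.532 (SE, limma FDR = 0.917). Hcrtr1 exceeded Hcrtr2 in 4 of 6 samples, and Hcrtr2 exceeded Hcrtr1 in Dbx1 replicate 2 and non-Dbx1 replicate 1, the 2 samples with the least Hcrtr1. Hcrt, the precursor of both orexins, stayed at trace level, at most 0.606 RPKM.

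Oxtr lies on chromosome 6 (112473683 to 112489943, minus strand). It stood at 1.09, 0.410 and 0 RPKM across Dbx1 replicates and at 0.936, 0.666 and 0 across non-Dbx1 replicates, from at most 73 reads. The groups covered nearly the same range, each with 1 sample at 0, and L2FC was -0.04 ± 0.384 (SE, limma FDR = 0.993). Avpr1a, which lies on chromosome 10 (122448499 to 122453452, plus strand), stood at 5.56, 3.38 and 5.92 RPKM across Dbx1 replicates and at 0, 2.36 and 6.67 across non-Dbx1 replicates. It was thus above 2 RPKM in all samples but non-Dbx1 replicate 1, and L2FC was 0.98 ± 0.777 (SE, limma FDR = 0.948), with 0.20 without non-Dbx1 replicate 1 and 1.67 without non-Dbx1 replicate 3. In GENCODE vM21 its gene lies within an antisense gene, and reads were counted without regard to strand, so reads of the antisense RNA could not be told from its own. The ligand genes Oxt and Avp were at 0 in every sample, where 3 reads would have given at most 0.864 and 0.804 RPKM. Of the related vasopressin receptors, Avpr1b reached 0.0666 RPKM in 1 sample and Avpr2 was at 0 in all.

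Crhr1, the main brain receptor for CRH, lies on chromosome 11 (104132855 to 104175523, plus strand). It stood at 9.56, 14.3 and 16.4 RPKM across Dbx1 replicates and at 9.68, 1.52 and 1.42 across non-Dbx1 replicates. All Dbx1 samples were above 9 RPKM, while non-Dbx1 replicate 1 lay 0.124 RPKM above the lowest Dbx1 sample and the other non-Dbx1 samples far below. The group means were 13.4 ± 3.49 and 4.21 ± 4.74 RPKM (SD, n = 3 each), a ratio of 3.19. L2FC was 1.81 ± 0.624 (SE, limma FDR = 0.912), and it stayed between 1.44 and 2.51 when single samples were left out. An exact two-sided permutation test gave p = 0.20, where 0.10 is the smallest it can give for 3 samples against 3. Slc17a6, the vesicular glutamate transporter that marks excitatory neurons, was also higher in the Dbx1 samples, at 47.2, 128 and 54.9 against 31.9, 35.1 and 13.6 RPKM, and its part in the Crhr1 difference was not tested.

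The rest of the CRH system followed other patterns. Crh, the ligand, stood at 0.0953, 6.24 and 11.0 RPKM across Dbx1 replicates and at 35.7, 11.2 and 1.69 across non-Dbx1 replicates, which overlapped (L2FC -1.22 ± 1.11 SE, limma FDR = 0.951). Crhbp, a secreted protein that binds CRH and keeps it from its receptors, stood at 14.5, 5.83 and 0.767 RPKM across Dbx1 replicates and at 127, 21.1 and 121 across non-Dbx1 replicates. Every non-Dbx1 sample was above every Dbx1 sample, as for 5.24% of all tested genes. The ratio of group means was 12.7 and L2FC was -3.61 ± 0.887 (SE, limma FDR = 0.724). Crhr2, the receptor preferred by urocortins, stood at 2.88, 2.02 and 2.53 RPKM across Dbx1 replicates and at 9.03, 0 and 0 across non-Dbx1 replicates (L2FC 0.68 ± 0.913 SE, limma FDR = 0.960). Its Dbx1 samples were even, and among the non-Dbx1 samples it was present only in replicate 1, which was also the non-Dbx1 sample with the most Crhr1 and Crh. The urocortin genes Ucn, Ucn2 and Ucn3 were at 0 in every sample.

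**Figure D4:**
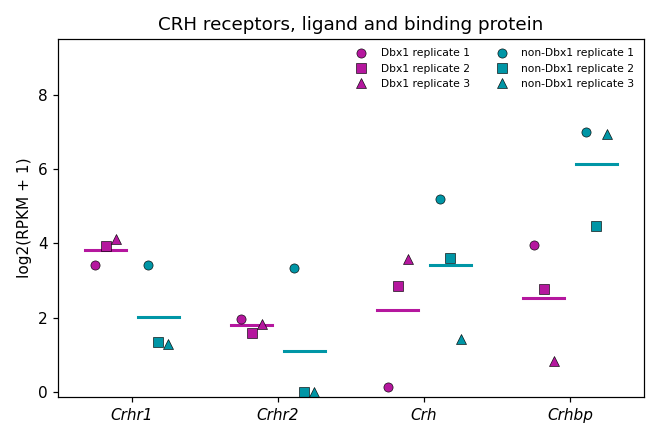
The vertical axis gives log2(RPKM + 1) of 2 CRH receptors, the ligand Crh and the binding protein Crhbp in 3 Dbx1 (magenta) and 3 non-Dbx1 (teal) samples, with a bar at each group mean. The groups overlap for Crhr1, Crhr2 and Crh, and all non-Dbx1 samples lie above the Dbx1 samples for Crhbp.

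Npy1r, a receptor found mostly on cell bodies and dendrites, lies on chromosome 8 (66697192 to 66706792, plus strand). It stood at 0, 6.09 and 6.59 RPKM across Dbx1 replicates and at 2.10, 0.0474 and 0 across non-Dbx1 replicates. It was thus abundant in 2 Dbx1 samples and at 0 in the other, with an L2FC of 1.35 ± 0.885 (SE, limma FDR = 0.937) that was 2.31 without Dbx1 replicate 1 and 0.85 without Dbx1 replicate 3. Npy2r, often a presynaptic receptor that limits transmitter release, lies on chromosome 3 (82538383 to 82548084, minus strand). It stood at 4.08, 1.12 and 2.05 RPKM across Dbx1 replicates and at 0.904, 0 and 0.453 across non-Dbx1 replicates, from 311, 81 and 137 reads and 56, 0 and 41 reads. The lowest Dbx1 sample was 0.219 RPKM above the highest non-Dbx1 sample. The group means were 2.42 ± 1.51 and 0.452 ± 0.452 RPKM (SD, n = 3 each), a ratio of 5.35, and L2FC was 1.19 ± 0.525 (SE, limma FDR = 0.912). The exact two-sided permutation test gave its smallest possible p of 0.10.

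Npy5r lies beside Npy1r on chromosome 8 (66679965 to 66688128, minus strand), and the genes are transcribed away from each other. It stood at 0.610, 0 and 0 RPKM across Dbx1 replicates and at 0.107, 0 and 0 across non-Dbx1 replicates, from 28 and 4 reads. The Dbx1 sample with Npy5r was the one without Npy1r, and non-Dbx1 replicate 1 held both, with 67 reads of Npy1r and 4 of Npy5r. Npy, the main ligand, stood at 0, 14.8 and 33.3 RPKM across Dbx1 replicates and at 16.1, 7800 and 0.749 across non-Dbx1 replicates. The sample with 7800 RPKM of Npy was non-Dbx1 replicate 2, which also held the high catecholaminergic markers, and the groups otherwise overlapped (L2FC -2.92 ± 2.72 SE, limma FDR = 0.951). Pyy, which encodes peptide YY, reached 0.916 RPKM in Dbx1 replicate 2 and 1.85 in non-Dbx1 replicate 2 and was at 0 elsewhere, and Ppy was at 0 in all samples. Among the other NPY family receptors Npy4r reached 0.0694 RPKM in 1 sample and Npy6r was at 0.

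Galr1, on chromosome 18, was carried by a single sample. It stood at 0.964, 0.0463 and 0 RPKM across Dbx1 replicates and at 0, 8.96 and 0.222 across non-Dbx1 replicates. By the shortest length that fits, the value of 8.96 came from 220 reads in non-Dbx1 replicate 2, and no other sample had more than 22 reads. L2FC was -0.86 ± 0.828 (SE, limma FDR = 0.951) and became 0.20 once that sample was left out. The 5 catecholaminergic markers were highest in it too, with Slc6a2 at 0 in all other samples and Dbh at 0 in the 3 Dbx1 samples, and their summed RPKM ranged from 1.65 to 12.4 in the Dbx1 and from 7.25 to 673 in the non-Dbx1 samples. Their part in the Galr1 value was not tested. Gal, which encodes galanin, stood at 7.77, 1.31 and 6.26 RPKM across Dbx1 replicates and at 1.09, 0.821 and 21.3 across non-Dbx1 replicates (L2FC 0.26 ± 1.02 SE, limma FDR = 0.988). It was lowest in the sample with the most Galr1. Galr2 was above 0 only in that same sample, at 1.37 RPKM, Galp was at 0 in all samples, and Galr3 was not analysed here.

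Cckbr, the main CCK receptor of the brain, lies on chromosome 7 (105425731 to 105470898, plus strand). It stood at 7.14, 0.907 and 13.2 RPKM across Dbx1 replicates and at 0, 2.54 and 3.62 across non-Dbx1 replicates. Dbx1 replicates 1 and 3 were above all non-Dbx1 samples, and Dbx1 replicate 2 lay among them. The group means were 7.07 ± 6.13 and 2.05 ± 1.86 RPKM (SD, n = 3 each), with an L2FC of 1.25 ± 0.905 (SE, limma FDR = 0.940) that was 0.58 without non-Dbx1 replicate 1, 0.63 without Dbx1 replicate 3 and 2.08 without Dbx1 replicate 2. Cckar, the other CCK receptor, was at 0 in every sample. Cck stood at 0.737, 17.7 and 4.53 RPKM across Dbx1 replicates and at 9.47, 1.80 and 0.699 across non-Dbx1 replicates (L2FC 0.62 ± 0.988 SE, limma FDR = 0.968). Gast, which encodes gastrin, was above 0 in Dbx1 replicate 2 and non-Dbx1 replicate 3 only, at 3.75 and 3.69 RPKM.

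Some receptors varied together over the samples, which is given as a description of 6 samples with few reads. Of 45 pairs, Pearson r of log2(RPKM + 1) was highest for Avpr1a and Cckbr (0.823), and r was 0.772 for Hcrtr1 and Cckbr and 0.690 for Hcrtr1 and Avpr1a. All 3 of these were at 0 in non-Dbx1 replicate 1, and each had its lowest Dbx1 value in Dbx1 replicate 2. Crhr1 and Npy1r (r = 0.791) and Crhr1 and Npy2r (r = 0.721) also varied alike. So did Npy2r and Npy5r (r = 0.748), though Npy5r rested on 28 and 4 reads. In contrast, r was -0.410 for the pair of orexin receptors and -0.623, the lowest, for Crhr1 and Galr1. Since r was taken over both groups, a difference between them enters it. Over all genes above 0 in every sample with a mean of at least 1 RPKM, the patterns most like that of Hcrtr1 were those of Gnaz (r = 0.991), Rpl17 (0.981) and Zfand2a (0.980), of 11029 searched. Those most like Crhr1 were Nr2c2 (0.998), Tmem74b (0.983) and Faap20 (0.983), of 11028 searched. Each r rests on 6 samples and was the highest of many searched, and 31 genes exceeded 0.95 for Hcrtr1 and 24 for Crhr1.

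Of 14 ligand genes, 7 were at 0 in every sample, 5 were tested and none reached FDR < 0.1 or an unadjusted limma p under 0.05. Of 15 genes for G proteins, phospholipases, arrestins and receptor kinases through which these receptors act, all were tested, 10 had L2FC above 0 and 5 below, and none reached FDR < 0.1, with a median L2FC of 0.28. Highest by mean deposited RPKM over 6 samples were the Gi subunit Gnai1 (78.6), the Gq class subunit Gna11 (40.0) and the Gi subunit Gnai3 (35.2). Their L2FC was 0.16, 0.30 and 0.28, with standard errors of 0.282, 0.243 and 0.322 (limma FDR = 0.969, 0.949 and 0.960). These levels exceeded those of every receptor in the set, and all 3 were above 20 RPKM in every sample. For Gnao1 (mean of 29.1) and Gnai2 (23.6) the length behind RPKM was 1.625 and 1.94 times the merged exons, against 1.0 for Gnai3. The order of these genes thus depends on the length and was not computed with merged exons. Gnaq, named after its values were seen, was the only gene of the list whose groups did not overlap. It stood at 18.8, 19.8 and 19.3 RPKM across Dbx1 replicates and 25.6, 23.2 and 22.8 across non-Dbx1 replicates (L2FC -0.29 ± 0.240 SE, limma FDR = 0.949). Of all tested genes, 5.24% were likewise higher in every non-Dbx1 sample.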

How the data were processed

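RNA of 6 samples of 15 preBötC neurons was sequenced. The authors made complementary DNA with SMART-Seq v4 and Nextera libraries, aligned single-end reads to mm10 with TopHat2, assigned them to genes by HTSeq without strand and tested these counts with DESeq2. The deposited files hold RPKM by total exon length, without scaling between samples. Counts were not used here, so log2(RPKM + 1) was tested with limma 3.58.1 (lmFit, eBayes with trend) in R 4.3.3, as a two-sided test with FDR by Benjamini-Hochberg called under 0.1, over 17614 genes above 0 in at least 3 of 6 samples. The pseudocount of 1 understates changes of low genes. Reads per sample and gene were recovered from the steps between RPKM values. Exon lengths and positions came from GENCODE vM21, which matched 95.3% of gene names; the release behind the files was not given in the sources used here. Of 15619 genes whose lengths differ, 26.9% gave whole reads (within 0.001) in every sample with the summed length of distinct exons and 0.2% with merged exons.

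The receptors and gene lists were chosen with earlier results of these data known. Named were all 10 receptors, their ligands above 0 in any sample, receptors of the same families and Crhbp. So were the 3 genes of each further list with the highest mean deposited RPKM. The genes most correlated with the 2 most abundant receptors were named too. Neighbours in level were called alike where their mean within-sample difference was below its SD. Alternatives were another pseudocount, filters, scalings, no trend, a replicate block, log2 ratios of mean RPKM and each sample left out. Merged exon lengths for the mean levels, voom on recovered reads and detection with samples left out were added after seeing the data. 1 oligodendrocyte marker of the lists is not reported here.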

Additional observations from a re-analysis of the deposited data

How the results depend on the processing

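Of the 9 receptors tested, 6 kept their direction under every alternative (Hcrtr2, Avpr1a, Crhr1, Npy1r, Npy2r and Cckbr), and no receptor reached FDR < 0.1 under any, the lowest limma FDR being 0.650. L2FC of Hcrtr1 was 0.71 with a pseudocount of 0.1, 0.79 with voom and -1.53 to 0.90 when single samples were left out. L2FC of Oxtr was 0.27 with voom and -0.33 to 0.22 with single samples left out, and that of Galr1 was -1.46 to 0.20 with single samples left out and -3.18 as the log2 ratio of group mean RPKM. The cause was not tested. The count of genes with FDR < 0.1, 1 in the main limma test (916 with unadjusted p under 0.05), was 0 with a pseudocount of 0.1 (974), 0 over genes above 0 in at least 1 sample (777), 0 with voom (738), 3 without the trend (1009) and 0 to 1 with single samples left out. With the replicate number as a block it was 0 (819), and no receptor was called. Samples of the same number did not deviate together (r = -0.107, 0.0248 and -0.0522), so the number is not taken as a pairing. All 10 receptors were above 0 in some sample of each group, but 6 in all 3 Dbx1 and 2 in all 3 non-Dbx1 samples. The requirement of 1 RPKM in 3 samples left out Hcrtr2, Oxtr and Galr1, and voom left out Galr1. Values of few reads limit the rarer receptors: Npy5r rested on 28 and 4 reads.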

Other observations

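Of 19 peptide receptors of other families, all were above 0 in some sample, 15 were tested with limma and none reached FDR < 0.1. By mean deposited RPKM over 6 samples the highest 3 were Adcyap1r1 (20.4), Ntsr2 (11.0) and Trhr (9.45). They are receptors for PACAP, neurotensin and thyrotropin-releasing hormone. The lengths behind RPKM were 1.56, 0.496 and 1.11 times their merged exons, against 5.44 for Oprl1 (mean of 6.66) and 2.20 for Sstr2 (7.77). This order thus depends on the length and was not computed with merged exons. Trhr stood at 18.5, 28.0 and 6.10 RPKM across Dbx1 replicates and at 2.85, 0 and 1.31 across non-Dbx1 replicates (L2FC 2.94 ± 0.709 SE, limma FDR = 0.724). The groups thus did not overlap and the Dbx1 samples were higher, as for 5.35% of all tested genes. Ntsr1, named after its values were seen, was the only receptor of this list with an unadjusted limma p under 0.05 in the other direction. Of all tested genes, 2.48% passed in that direction. Ntsr1 stood at 1.30, 1.24 and 0 RPKM across Dbx1 replicates and 3.64, 8.63 and 2.92 across non-Dbx1 replicates (L2FC -1.70 ± 0.638 SE, limma FDR = 0.912). Adcyap1r1 and Ntsr2 overlapped between the groups, with L2FC of -0.47 and 0.11 and standard errors of 0.454 and 0.506 (limma FDR = 0.951 and 0.990).

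All 7 genes for enzymes that cut peptides were tested, 4 with L2FC above 0 and 3 below, and none reached FDR < 0.1. Highest by mean deposited RPKM over 6 samples were neurolysin, Nln (19.5), thimet oligopeptidase, Thop1 (10.3), and endothelin-converting enzyme 1, Ece1 (5.23). For Ece2 (4.71) the length behind RPKM was 2.36 times the merged exons, against 1.04 for Ece1, so their order depends on the length. Nln stood at 39.4, 11.3 and 28.6 RPKM across Dbx1 replicates and at 11.8, 17.0 and 8.89 across non-Dbx1 replicates (L2FC 0.90 ± 0.469 SE, limma FDR = 0.924). Ece1 stood at 1.48, 3.95 and 4.51 RPKM across Dbx1 replicates and at 8.68, 6.17 and 6.56 across non-Dbx1 replicates (L2FC -0.98 ± 0.497 SE, limma FDR = 0.915). Its groups did not overlap, as for 5.24% of all tested genes in that direction. Thop1 overlapped, with an L2FC of -0.07 ± 0.404 (SE, limma FDR = 0.991).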
